A study of Homo sapiens with 12 samples.

Results

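The genes described here are the solute carriers expressed in MDA-MB231 breast cancer cells, apart from 12 plasma membrane carriers of amino acids and glucose that the selection leaves out by name. A gene was included when its symbol starts with SLC and its mean level over the 6 RNA-seq libraries was at least 1 CPM (counted reads of a gene per 1e6 counted reads). These criteria were met by 206 of the 27745 genes in the count table. Of the 388 genes with such a symbol, 170 were below the level and 12 were the named exceptions. The members were chosen by their mean CPM over all 6 libraries and by no difference between groups, but the choice was made with earlier results of these data known, and the carrier SLCO4A1 was named in it. Just inside the level were SLC44A3 at 1.208, SLC45A1 at 1.268 and SLC30A10 at 1.276 mean CPM, and just outside were SLC35G6 at 0.858, SLC26A4 at 0.822 and SLC38A5 at 0.813. Not all of the 206 genes encode carriers of other substrates than amino acids and sugars: 20 are further carriers of amino acids and amines and 15 belong to families named for sugars. For 5 genes the symbol only starts like that of a carrier (SLC9A3R1, SLC9A3R2, SLC4A1AP, SLC7A6OS and SLC2A4RG), which leaves 201 carriers in 46 families.

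Solute carriers are membrane proteins that move ions, metabolites, vitamins and metals across the plasma membrane or the membranes of organelles, by facilitated diffusion or by coupling to the gradient of another solute. Members of a family share sequence, and usually a kind of substrate, but they can sit in different membranes and move their substrate in opposite directions. In breast cancer cells they are best known for the export of lactate from glycolysis, the supply of nucleosides, choline and phosphate for growth, the control of pH and volume, and the handling of zinc and iron. TDP43, encoded by TARDBP, and SRSF3 are nuclear RNA-binding proteins that act in splicing and other steps of RNA processing.

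The study used MDA-MB231, a triple-negative breast cancer cell line, infected with lentivirus to express stably a control hairpin (sh-control), a hairpin against TDP43 (sh-TDP43) or a hairpin against SRSF3 (sh-SRSF3), with 2 RNA-seq libraries in each of these 3 groups. Flag-tagged TDP43 and Flag-tagged SRSF3 were immunoprecipitated with their RNA (RIP), with 1 RIP library and 1 input library for each protein. The labels name 1 hairpin per target, and they do not give the origin of replicate libraries, so the p-values rest on library-to-library spread that may be technical only. The combined knockdown of both proteins was not analysed here.

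Counted reads per library ranged from 34457445 to 38326930. TARDBP stood at 168 and 125 CPM in sh-control, 34.4 and 31.3 in sh-TDP43 and 108 and 102 in sh-SRSF3. SRSF3 stood at 459 and 404 CPM in sh-control, 64.1 and 61.7 in sh-SRSF3 and 187 and 180 in sh-TDP43. Each knockdown thus also had less RNA of the other target than the controls. The log2 difference was -1.23 (SE 0.10) for SRSF3 in sh-TDP43 and -0.48 (SE 0.12) for TARDBP in sh-SRSF3. Of the markers of the line, VIM, CD44, AXL and CAV1 were between 218 and 2398 CPM in every library, whereas SPARC did not exceed 1.84 CPM. The luminal markers PGR, FOXA1 and ESR1 did not exceed 1.86 CPM, GATA3 reached 12 and ERBB3 22.2 CPM. Of the fibroblast and blood markers, DCN and CD3E did not exceed 0.222 CPM, and the others reached at most 25.3 CPM, for COL1A1. Several markers differed between groups: AXL and CAV1 fell by 1.91 and 1.65 in sh-TDP43, and CD44 and SPARC fell by 1.04 and 2.04 and ERBB3 rose by 1.31 in sh-SRSF3. PTPRC rose by 1.92 in sh-TDP43 and fell by 1.59 in sh-SRSF3, at 0.111 to 2.8 CPM. In sh-SRSF3 PDGFRB and CD14 fell by 2.22 and 1.97, and COL1A1 rose by 0.69 and fell by 0.37 in sh-TDP43. The part of these differences in the results below was not tested.

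Solute carrier RNA was lower far more often than higher after SRSF3 knockdown, and it moved both ways after TDP43 knockdown. In sh-SRSF3 against sh-control, 117 of the 206 genes fell and 49 rose, that is 56.8% and 23.8%, where 66.9% of all 15026 genes tested were called, 34.4% lower and 32.5% higher (edgeR quasi-likelihood test, called at a Benjamini-Hochberg adjusted p under 0.05). The median log2 difference was -0.54 over the 206 genes and -0.03 over all genes tested. In bulk libraries, less RNA per cell and fewer cells that express a gene cannot be told apart. At least a 2-fold fall was called for 71 of the 206 genes and a 2-fold rise for 23, where 20.4% and 11.3% of all genes were called. In sh-TDP43 against sh-control, 65 of the 206 genes fell and 44 rose, or 31.6% and 21.4%, where 44.8% of all genes were called, 24.1% lower and 20.7% higher. The median in sh-TDP43 was -0.06, and 12 genes fell and 10 rose at least 2-fold, where 6.44% and 6.25% of all genes did. With upper-quartile scaling the sh-TDP43 split became 55 lower and 57 higher and the median 0.03, so no overall direction is given for that knockdown. All 206 genes were tested. For SLC16A1, SLC26A3 and SLC18A2 the control mean was below 1 CPM, so they met the level only through the knockdown libraries and had to differ; the counts by substrate include them. Over the other 203 genes, 117 fell and 46 rose in sh-SRSF3, and 65 fell and 41 rose in sh-TDP43. Members that owe the level to the sh-control libraries were kept, so this recount took out risers only.

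The calls of the SRSF3 knockdown held more often under other settings than those of the TDP43 knockdown. Of the 166 genes called in sh-SRSF3, 136 kept the call in every setting run, including each fit that left out 1 library, and of the 109 called in sh-TDP43, 61 did. Without the second sh-TDP43 library, the genes called higher in sh-TDP43 dropped from 44 to 20. Counts by substrate in sh-TDP43 are small, and several also moved by over 1.5 times without 1 control library or without the first sh-TDP43 library. Tested directly, 111 of the 206 genes were higher in sh-TDP43 than in sh-SRSF3 and 58 were lower, where 65.5% of all genes were called, 33.5% higher and 32.0% lower; the median difference was 0.53 over the members and 0.04 over all genes.

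**Figure D1:**
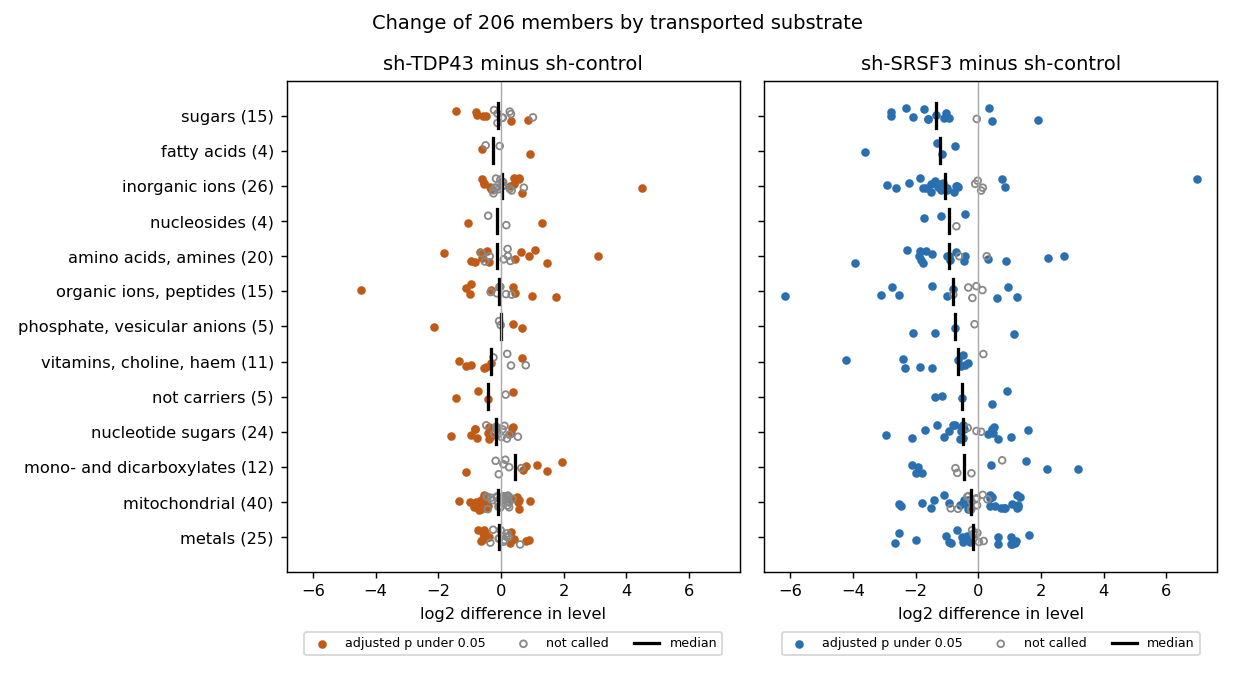
Each point is 1 gene, placed by its log2 difference in level from sh-control (x axis) and by the kind of substrate (y axis, number of genes in brackets), for sh-TDP43 on the left and sh-SRSF3 on the right. Filled points passed the test, open points did not, and black bars are medians, which for sh-SRSF3 lie below 0 in every row, from -1.34 for sugars to -0.16 for metals.

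The summed level of the 206 genes was lower in all 4 knockdown libraries than in the controls. It was 10939 and 10589 CPM in the sh-control libraries, 9535 and 9316 in sh-TDP43 and 10137 and 9960 in sh-SRSF3, so the sum was lower in sh-TDP43 although more members fell in sh-SRSF3. Per length, the most abundant members in sh-control were the mitochondrial ADP/ATP carriers SLC25A5, at 405 RPKM (CPM per kilobase of exon), and SLC25A6, at 186 RPKM. The phosphate importer SLC20A1 followed at 83.4 RPKM and the zinc carrier SLC39A7 of the endoplasmic reticulum at 81.7 RPKM. The median member stood at 4.7 RPKM in sh-control, 4.32 in sh-TDP43 and 3.08 in sh-SRSF3. Beside the genes named by the stated rule, others are named below for their known role, after their values had been seen.

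Among the 15 carriers of organic ions, peptides and drugs, SLCO4A1 had the lowest log2 difference of all 206 genes in both knockdowns. SLCO4A1 (ENSG00000101187, GRCh37 chromosome 20, 61273797 to 61317137) encodes an organic anion transporting polypeptide of the plasma membrane that takes up thyroid hormone and other anions. It stood at 59.9 and 60.0 CPM in sh-control, 2.85 and 2.62 in sh-TDP43 and 1.02 and 0.637 in sh-SRSF3, so the groups lay far apart and the control libraries nearly coincided. The log2 difference was -4.45 (SE 0.16) in sh-TDP43 and -6.18 (SE 0.19) in sh-SRSF3; as the gene was chosen with this known, the values describe it and test nothing. Of the other 2 OATP carriers, SLCO3A1 stood at 23.0 and 30.7 CPM in sh-control and fell to 14.8 and 16.2 in sh-SRSF3. In sh-TDP43 it was at 33.9 and 36.2, a rise of 0.38 that was lost without the first sh-control library (edgeR adjusted p = 0.329) and without either sh-TDP43 library. SLCO1B3 fell by 1.01 in sh-SRSF3 and did not pass in sh-TDP43 (-0.02, edgeR adjusted p = 0.943).

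Other carriers in this group moved in both knockdowns or in 1 of them. SLC22A15, an organic ion carrier, stood at 7.34 and 9.0 CPM in sh-control and rose to 26.5 and 28.3 in sh-TDP43 (log2 difference 1.75, SE 0.15, edgeR adjusted p = 7.96e-07) and to 17.1 and 14.3 in sh-SRSF3 (0.94, SE 0.15, edgeR adjusted p = 7.18e-05). The libraries of the 3 groups did not overlap, and the direct difference between the knockdowns was 0.80 (edgeR adjusted p = 0.000205). The carnitine importer SLC22A5 rose in sh-SRSF3, from 25.8 and 27.6 to 58.6 and 66.1 CPM. In contrast SLC15A3, a lysosomal carrier of peptides and histidine, fell there from 16.4 and 19.5 to 1.86 and 2.35 CPM, a log2 difference of -3.09 (SE 0.21), while its sh-TDP43 libraries at 11.9 and 16.8 overlapped the controls. SLC10A3, a member of the bile acid carrier family, fell in sh-TDP43 from 79.6 and 69.8 to 34.8 and 33.9 CPM and stood at 65.5 and 65.7 in sh-SRSF3. The cation carrier SLC22A3 fell in both knockdowns, by 0.98 in sh-TDP43 and by 1.49 in sh-SRSF3. SLC10A7 rose by 0.58 in sh-SRSF3; its rise of 0.45 in sh-TDP43 was lost without the first sh-control library (edgeR adjusted p = 0.23) and without either sh-TDP43 library. Of the 15 genes, 7 fell and 3 rose in sh-SRSF3. That is 46.7% lower, where 34.4% of all genes fell and 32.5% rose. In sh-TDP43 5 fell and 4 rose, fewer in each direction without the second sh-TDP43 library. The shares there were 33.3% lower and 26.7% higher, where 24.1% and 20.7% of all genes were.

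Of all members, SLC20A1 had the largest fall in CPM in sh-TDP43. It encodes PiT1, a sodium-coupled importer of inorganic phosphate that also serves as a receptor for some retroviruses. Its level (ENSG00000144136, GRCh37 chromosome 2, 113403434 to 113421404) was 486 and 444 CPM in sh-control, 115 and 94.8 in sh-TDP43 and 190 and 170 in sh-SRSF3, with no overlap between groups. The log2 difference was -2.15 (SE 0.11, edgeR adjusted p = 1.28e-08) in sh-TDP43 and -1.37 (SE 0.11, edgeR adjusted p = 9.69e-08) in sh-SRSF3. The paralog SLC20A2, at 34.9 and 33.7 CPM in sh-control, did not pass the test in either knockdown, with log2 differences of -0.01 and -0.12 (SE 0.11 each). Of the vesicular and lysosomal anion carriers, SLC17A5, the sialic acid exporter of lysosomes, rose from 36.6 and 49.8 CPM to 63.7 and 74.9 in sh-TDP43 and to 79.0 and 111 in sh-SRSF3. Without the second sh-TDP43 library the SLC17A5 rise in sh-TDP43 did not pass (0.57, edgeR adjusted p = 0.0528). SLC17A9, which loads ATP into vesicles, rose by 0.38 in sh-TDP43 and fell by 0.75 in sh-SRSF3.

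The main lactate exporter of the cells fell with SRSF3 knockdown and not detectably with TDP43 knockdown. SLC16A3 encodes MCT4, a proton-coupled carrier that exports lactate from glycolytic cells. It stood at 490 and 390 CPM in sh-control, 399 and 382 in sh-TDP43 and 130 and 93.0 in sh-SRSF3 (ENSG00000141526, GRCh37 chromosome 17, 80186273 to 80219005). The sh-TDP43 libraries overlapped the controls (log2 difference -0.17, SE 0.14, edgeR adjusted p = 0.337), and both sh-SRSF3 libraries lay below all others (-1.98, SE 0.15, edgeR adjusted p = 4.19e-08). SLC16A1, the related carrier MCT1, stood in the control libraries at 0.565 and 0.235 CPM and at 0.76 and 1.44 in sh-TDP43 and 2.34 and 4.93 in sh-SRSF3; those values are given with no test. SLC16A7, which encodes MCT2, rose by 0.41 in sh-SRSF3, a call lost without the first sh-SRSF3 library (0.37, edgeR adjusted p = 0.0748) and with upper-quartile scaling (0.26, edgeR adjusted p = 0.109). Of the chaperones that bring these carriers to the membrane, BSG did not pass in either knockdown (0.16 and 0.09), while EMB fell by 1.64 in sh-TDP43 and by 0.66 in sh-SRSF3.

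Less abundant members of the SLC16 family separated the knockdowns. SLC16A5 stood at 13.8 and 21.0 CPM in sh-control, rose to 27.0 and 34.1 in sh-TDP43 and fell to 4.81 and 4.38 in sh-SRSF3, a direct difference of 2.73 between the knockdowns (edgeR adjusted p = 4.55e-08). SLC16A12, a creatine carrier, stood at 1.45 and 3.18 CPM in sh-control and rose to 8.01 and 10 in sh-TDP43, while its sh-SRSF3 libraries held 1.38 and 1.41. The dicarboxylate carrier SLC13A3 rose in sh-SRSF3 from 2.04 and 1.96 to 8.14 and 10.2 CPM. Among the 12 carboxylate carriers 5 rose and 1 fell in sh-TDP43, fewer without the second sh-TDP43 library, and 4 rose and 4 fell in sh-SRSF3. SLC16A1, which met the level only through the knockdown libraries, is counted among the risers of both. In sh-TDP43 the shares were 41.7% higher and 8.33% lower, where 20.7% and 24.1% of all genes were. The 33.3% in each direction in sh-SRSF3 is near the 32.5% higher and 34.4% lower of all genes.

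Of the 15 genes in the sugar families 11 fell and 3 rose in sh-SRSF3, with a median of -1.34, the lowest of the substrate groups. That is 73.3% lower, where 34.4% of all genes fell and 32.5% rose. SLC37A2 and SLC37A3 belong to a family of sugar phosphate exchangers of the endoplasmic reticulum; SLC37A3 is also known for releasing bisphosphonates from lysosomes. SLC37A2 stood at 193 and 221 CPM in sh-control, 245 and 267 in sh-TDP43 and 30.3 and 29.7 in sh-SRSF3, a log2 difference of -2.79 (SE 0.10, edgeR adjusted p = 1.97e-10) in the last. SLC37A3 moved in the other direction, from 60.6 and 58.7 CPM in sh-control to 109 in both sh-TDP43 libraries and to 221 and 223 in sh-SRSF3 (0.87, SE 0.09, and 1.90, SE 0.09). For both genes the 3 groups did not overlap, and the direct difference between the knockdowns was 3.09 for SLC37A2 and -1.03 for SLC37A3. The rise of SLC37A2 in sh-TDP43 (0.31) was small and was lost without the first sh-control library (0.21, edgeR adjusted p = 0.133) or without the second sh-TDP43 library (0.25, edgeR adjusted p = 0.139). SLC37A4, the glucose 6-phosphate carrier of the endoplasmic reticulum, fell by 0.76 and 1.11, and SLC37A1 by 1.61 in sh-SRSF3.

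The remaining facilitative sugar carriers of the SLC2 family were lower in sh-SRSF3 for 5 of 6 genes and in sh-TDP43 for 1. Of all genes 34.4% and 24.1% were lower. SLC2A6 fell from 15.1 and 17.7 CPM to 3.64 and 2.94 in sh-SRSF3, and SLC2A10 and the inositol carrier SLC2A13 fell by 2.80 and 1.72. SLC45A3, a carrier best known as a prostate antigen, fell in both, from 21.8 and 23.0 CPM to 7.16 and 9.65 in sh-TDP43 and to 5.2 and 5.32 in sh-SRSF3. SLC50A1, a sugar efflux carrier, fell by 0.81 in sh-TDP43 and rose by 0.45 in sh-SRSF3. SLC5A6, placed here by its family number, carries biotin and pantothenate; it rose by 0.34 in sh-SRSF3, a call lost with upper-quartile scaling (0.18, edgeR adjusted p = 0.133) and without the first sh-SRSF3 library (0.26, edgeR adjusted p = 0.112).

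**Figure D2:**
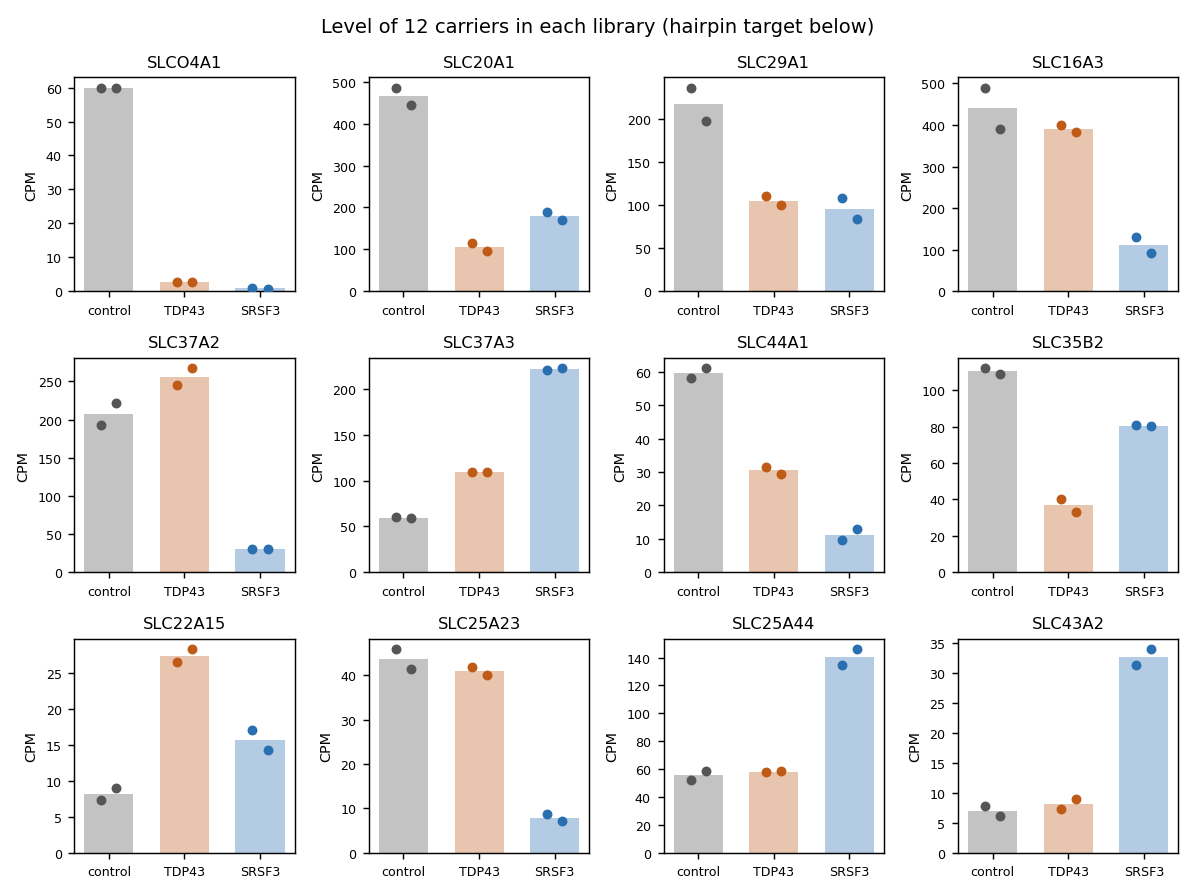
Level in CPM (y axis, from 0) of 12 carriers in the 3 groups (x axis, control, TDP43 and SRSF3 hairpin). Points are the 2 libraries of each group and bars their mean; SLCO4A1 and SLC20A1 were lower in all 4 knockdown libraries, SLC16A3 and SLC37A2 were lowest in the 2 sh-SRSF3 libraries, and SLC37A3 was higher in all 4.

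After SRSF3 knockdown the zinc exporter SLC30A1 and 3 metallothionein genes fell, and the zinc carriers SLC39A1, SLC39A7, SLC39A9 and SLC30A5 rose. Over the families, 4 of the 11 SLC39 genes rose and 3 fell in sh-SRSF3, and 1 of the 7 SLC30 genes rose and 4 fell. The SLC39 shares, 36.4% higher and 27.3% lower, are near the 32.5% and 34.4% of all genes. The SLC30 shares were 14.3% higher and 57.1% lower. SLC30A1 encodes ZnT1, the carrier that pumps zinc out of the cell, and metallothioneins are small proteins that buffer zinc and copper. The transcription factor MTF1 switches on SLC30A1 and the metallothionein genes when free zinc is high, by binding metal response elements. SLC30A1 stood at 62.6 and 70.4 CPM in sh-control, 50.4 and 40.2 in sh-TDP43 and 17.6 and 16.1 in sh-SRSF3, with no overlap between groups. It fell by 1.98 (SE 0.13, edgeR adjusted p = 1.26e-08) in sh-SRSF3 and by 0.55 in sh-TDP43, the latter lost without the second sh-TDP43 library (-0.39, edgeR adjusted p = 0.0520). MT2A fell from 603 and 522 CPM to 232 and 182 in sh-TDP43 and to 185 and 125 in sh-SRSF3. MT1X fell by 2.25 and 2.22 and MT1E by 2.53 and 1.54 in sh-TDP43 and sh-SRSF3; metallothionein genes are near-identical copies, so the counts of single genes are uncertain. A further copy, MT1F, read 0.969 and 1.15 CPM in sh-control and 0.541 and 0 in sh-SRSF3; its call there (edgeR adjusted p = 0.0479) was lost with DESeq2 and in 5 of the 6 fits without a library. MTF1 itself fell by 0.63 in sh-TDP43 and rose by 0.50 in sh-SRSF3.

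Promoters of 3 genes that fell in sh-SRSF3 (SLC30A1, MT2A and MT1X) and of 2 that rose (SLC39A7 and SLC39A1) are shown for the element core. Each run is the 250 bases before the start of the gene on its own strand, from RefSeq on GRCh38.p14, and capitals mark the cores TGCACNC and TGCGCNC, searched on both strands. The windows lie at chr1:211579162-211579411 on the minus strand for SLC30A1, and on the plus strand at chr16:56608334-56608583 for MT2A, chr16:56682220-56682469 for MT1X and chr6:33200617-33200866 for SLC39A7. Of the 2 entries of SLC39A1, that at chr1:153963538-153963787 on the minus strand is printed.
SLC30A1: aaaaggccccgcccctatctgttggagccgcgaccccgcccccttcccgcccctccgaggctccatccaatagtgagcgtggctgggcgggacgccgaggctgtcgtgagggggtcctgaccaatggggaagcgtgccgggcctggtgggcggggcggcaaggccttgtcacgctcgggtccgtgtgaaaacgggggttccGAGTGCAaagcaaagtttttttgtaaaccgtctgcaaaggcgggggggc
MT2A: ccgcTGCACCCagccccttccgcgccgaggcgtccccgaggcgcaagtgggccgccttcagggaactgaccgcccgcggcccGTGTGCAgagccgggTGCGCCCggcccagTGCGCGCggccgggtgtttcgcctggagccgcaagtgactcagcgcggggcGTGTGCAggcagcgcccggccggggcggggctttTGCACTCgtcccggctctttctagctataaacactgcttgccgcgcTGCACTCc
MT1X: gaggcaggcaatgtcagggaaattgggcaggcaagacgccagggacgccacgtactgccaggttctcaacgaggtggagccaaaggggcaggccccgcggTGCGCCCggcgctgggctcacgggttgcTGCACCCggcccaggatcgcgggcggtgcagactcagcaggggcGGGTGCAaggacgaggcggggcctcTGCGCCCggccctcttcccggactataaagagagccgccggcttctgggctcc
SLC39A7: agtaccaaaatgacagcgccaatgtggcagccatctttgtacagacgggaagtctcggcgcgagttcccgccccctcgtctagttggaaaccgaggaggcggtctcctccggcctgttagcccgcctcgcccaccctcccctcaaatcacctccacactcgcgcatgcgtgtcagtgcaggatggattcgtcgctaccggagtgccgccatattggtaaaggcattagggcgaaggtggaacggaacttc
SLC39A1: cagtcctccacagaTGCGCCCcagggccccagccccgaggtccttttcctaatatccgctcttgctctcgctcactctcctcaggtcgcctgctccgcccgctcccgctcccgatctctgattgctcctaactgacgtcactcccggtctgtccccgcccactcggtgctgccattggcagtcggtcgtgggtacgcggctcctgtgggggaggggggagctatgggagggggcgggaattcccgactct
The MT2A window holds 7 cores, that of MT1X 4, that of SLC30A1 1 on the opposite strand and that of SLC39A7 0. The printed SLC39A1 window also holds 1, and the other SLC39A1 entry and the entries of SLC39A9 and SLC30A5 hold 0, so genes that fell and genes that rose both include a window with 1 core. A core is present in 24.8% of all 35116 promoter entries and in 34.6% of the 243 entries matched to 164 of the 206 genes. Among 23 entries of SLC30 and SLC39 genes the share was 34.8%. A match is a run of letters and not a measured binding site.

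On the import side, SLC39A7, which releases zinc from the endoplasmic reticulum, stood at 242 and 223 CPM in sh-control, 239 and 252 in sh-TDP43 and 506 and 543 in sh-SRSF3. Both sh-SRSF3 libraries were above all 4 others, and the log2 difference was 1.17 (SE 0.09, edgeR adjusted p = 9e-08). SLC39A9 rose likewise from 94.5 and 94.3 to 201 and 235 CPM (1.21, SE 0.10). SLC39A1, a plasma membrane importer, rose in sh-SRSF3 from 158 and 152 to 330 and 309 CPM and fell in sh-TDP43 to 107 and 101, a direct difference of -1.62 between the knockdowns (edgeR adjusted p = 5e-09). SLC30A5, which loads zinc into the secretory pathway, rose from 67.6 and 61.1 to 128 and 141 CPM in sh-SRSF3, whereas its partner SLC30A6 fell by 0.68. SLC39A14 and SLC39A8, importers of zinc, iron and manganese, fell by 0.60 and 0.64 in sh-TDP43; in sh-SRSF3 SLC39A14 fell by 0.28, a call lost without the second sh-SRSF3 library, and SLC39A8 did not pass (-0.16). SLC39A13 fell by 1.04 and SLC39A4 by 0.88 in sh-SRSF3, and SLC39A6 rose by 0.63. SLC39A11 rose in sh-TDP43 from 11.4 and 13.8 to 20.6 and 26.5 CPM.

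**Figure D3:**
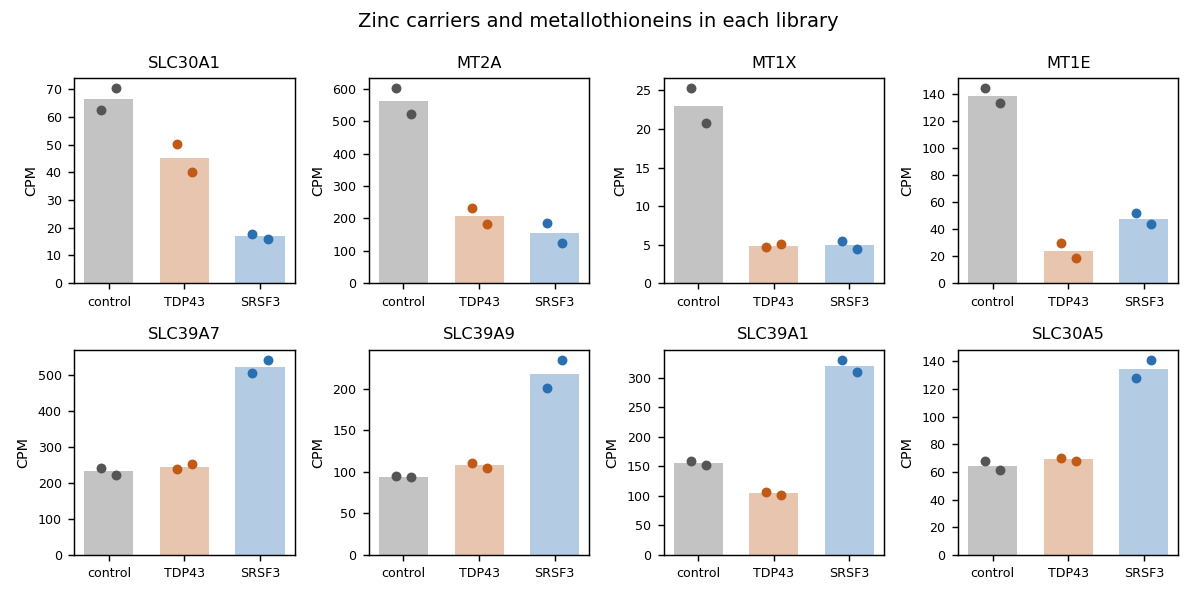
Level in CPM (y axis, from 0) of 5 zinc carriers and 3 metallothioneins in the 3 groups (x axis); points are the 2 libraries of each group and bars their mean. SLC30A1 and the metallothioneins were lower than sh-control in all 4 knockdown libraries, and SLC39A7, SLC39A9, SLC39A1 and SLC30A5 were higher in both sh-SRSF3 libraries.

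Iron and copper carriers also moved. SLC40A1 encodes ferroportin, the iron exporter; it stood at 5.54 and 6.16 CPM in sh-control, rose to 10.1 and 10.5 in sh-TDP43 and fell to 0.841 and 0.997 in sh-SRSF3. The 3 groups did not overlap, and the direct difference between the knockdowns was 3.47 (edgeR adjusted p = 1.84e-08). The transferrin receptor gene TFRC had the same order, with a rise of 0.70 in sh-TDP43 and a fall of 0.40 in sh-SRSF3, and the ferritin genes FTH1 and FTL rose by 0.66 and 0.75 in sh-SRSF3. The mitochondrial iron importer SLC25A37 fell in sh-SRSF3 from 135 and 164 to 57.5 and 47.0 CPM and its paralog SLC25A28 from 32.3 and 28.9 to 12.7 and 10.4. The copper importer SLC31A1 rose in sh-SRSF3 from 79.4 and 81.2 to 151 and 180 CPM and fell in sh-TDP43 to 55.7 in both libraries, and the copper pump genes ATP7A and ATP7B rose by 1.52 and 1.64 in sh-SRSF3. Of the magnesium carriers, SLC41A1 rose by 0.64 and SLC41A3 fell by 0.92 in sh-SRSF3; the fall of SLC41A3 by 0.72 in sh-TDP43 was lost without the second sh-TDP43 library (-0.45, edgeR adjusted p = 0.0816). Of all 25 metal carriers 11 fell and 8 rose in sh-SRSF3, and 9 fell and 5 rose in sh-TDP43, where upper-quartile scaling gave 9 and 8 and the fit without the second sh-TDP43 library 5 and 3. The shares higher, 32.0% and 20%, are near the 32.5% and 20.7% of all genes, and the shares lower were 44.0% and 36.0%, where 34.4% and 24.1% of all genes were.

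Carriers of inorganic ions fell in sh-SRSF3 for 19 of 26 genes, with 3 higher and a median of -1.07. The shares were 73.1% lower and 11.5% higher, where 34.4% and 32.5% of all genes were. Exchangers and cotransporters of this group set cell pH, volume and the gradients of sodium, potassium, calcium and chloride. SLC12A7, a potassium chloride cotransporter, fell from 38.3 and 44.2 CPM to 13 and 13.2 in sh-SRSF3, and the sulphate carrier SLC26A2 from 37.4 and 39.4 to 12.5 and 14.4. SLC9A7, a sodium and potassium proton exchanger of the Golgi, fell from 84.5 and 87.0 to 29.4 and 30.9. SLC24A1, a sodium, calcium and potassium exchanger, fell by 2.64 and SLC12A8 by 2.21; 5 of 6 SLC9 genes and 4 of 6 SLC4 genes were called lower. For each gene of this paragraph so far, both sh-SRSF3 libraries lay below both controls.

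Of the 3 genes called higher, 2 were among the abundant carriers of the group. The other, SLC26A3, met the level only through the knockdown libraries, so its call is no result. SLC4A2, a chloride bicarbonate exchanger, rose from 332 and 286 CPM in sh-control to 518 and 514 in sh-SRSF3 (0.74, SE 0.10, edgeR adjusted p = 1.11e-05), and SLC12A4, a further potassium chloride cotransporter, from 83.2 and 76.8 to 147 and 140. SLC26A3, a chloride bicarbonate exchanger of the gut, was read at 0.0807 and 0 CPM in sh-control, 1.06 and 0.882 in sh-TDP43 and 4.69 and 6.15 in sh-SRSF3, and these values are given with no test. In sh-TDP43 7 of the 26 genes, SLC26A3 among them, rose and 5 fell, against 8 and 2 with upper-quartile scaling. Without the second sh-TDP43 library fewer rose than fell. The shares, 26.9% higher and 19.2% lower, are near the 20.7% and 24.1% of all genes. SLC24A1 and SLC4A3 rose by 0.59 and 0.67 there, calls that were lost without either sh-TDP43 library (edgeR adjusted p = 0.0554 to 0.0785) and without 1 of the control libraries (edgeR adjusted p = 0.108 for each). SLC26A6 fell by 0.54 and SLC12A4 rose by 0.42, whereas SLC12A2, the sodium potassium chloride cotransporter, fell by 0.59, a call lost without the second sh-TDP43 library (-0.41, edgeR adjusted p = 0.0759).

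Beside the carriers, a separate list of 49 tested companion genes of transport was read. It holds ion pumps, genes of pH and volume regulation, carrier chaperones, metal handling genes, mitochondrial membrane proteins and ABC transporters. Of the 49 genes 24 fell and 13 rose in sh-SRSF3, and 20 fell and 7 rose in sh-TDP43. That is 49.0% lower and 26.5% higher in sh-SRSF3, where 34.4% and 32.5% of all genes were, and 40.8% and 14.3% in sh-TDP43, where 24.1% and 20.7% were. ATP1B1, a beta subunit of the sodium-potassium pump, stood at 212 and 208 CPM in sh-control, 53.0 and 46.6 in sh-TDP43 and 19.1 and 12.1 in sh-SRSF3, with falls of 2.07 and 3.75 on the log2 scale. Both kinases that phosphorylate the SLC12 carriers moved in sh-SRSF3 in opposite directions: OXSR1 rose from 179 and 194 to 436 and 417 CPM, and STK39 fell from 52.4 and 50.5 to 18.4 and 14.9. The volume-regulated channel gene LRRC8A fell by 1.24 in sh-TDP43 and by 1.06 in sh-SRSF3, and the calcium pump gene ATP2B4 fell from 121 and 159 to 16.6 and 17.9 CPM in sh-SRSF3. Among the ABC transporters, ABCA2 fell by 2.83 in sh-SRSF3.

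Mitochondrial carriers, the largest family with 40 genes, were split in sh-SRSF3, where 14 rose and 14 fell with a median of -0.22. The 35% in each direction is near the 32.5% higher and 34.4% lower of all genes. With upper-quartile scaling 11 rose and 21 fell there. In sh-TDP43 12 of the 40 fell and 6 rose, where 24.1% and 20.7% of all genes did. Upper-quartile scaling gave 10 lower and 8 higher in sh-TDP43. Mitochondrial carriers exchange metabolites and nucleotides across the inner membrane. Of the ADP/ATP carriers, SLC25A4 fell in both knockdowns, from 76.0 and 62.7 CPM to 40.9 and 35.5 in sh-TDP43 and 36.5 and 35.3 in sh-SRSF3. SLC25A5 fell in sh-TDP43, from 642 and 574 to 404 and 338 CPM, and did not pass in sh-SRSF3 at 683 and 661 (direct difference -0.86, edgeR adjusted p = 6.81e-06). SLC25A6 rose in both, from 442 and 365 to 591 and 548 in sh-TDP43 and 756 and 667 in sh-SRSF3. The 3 genes encode closely similar proteins and have related copies in the genome, so reads shared between them make single values uncertain. The phosphate carrier SLC25A3 fell by 0.54 in sh-TDP43; its fall of 0.25 in sh-SRSF3 was lost without the first control or either sh-SRSF3 library (edgeR adjusted p = 0.0561 to 0.232).

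In sh-SRSF3 the carriers that rose most were SLC25A44, which imports branched-chain amino acids, from 52.4 and 58.8 to 135 and 146 CPM (1.34, SE 0.10, edgeR adjusted p = 3.54e-08), and SLC25A33, a pyrimidine nucleotide carrier, from 19.0 and 13.2 to 38.7 and 38.5. The acylcarnitine carrier SLC25A20 and SLC25A16 rose by 1.09 and 1.22. Lower were SLC25A23, a calcium-gated carrier of ATP and phosphate, from 45.9 and 41.4 to 8.65 and 7.17 CPM (-2.46, SE 0.13, edgeR adjusted p = 2.24e-09), and the dicarboxylate carrier SLC25A10, from 17.7 and 10.8 to 4.96 and 3.21. The calcium-gated paralog SLC25A24 rose instead, from 204 and 211 CPM to 294 and 304 in sh-SRSF3 and to 338 and 287 in sh-TDP43. SLC25A13 and SLC25A12, the aspartate and glutamate exchangers of the malate shuttle, rose by 0.44 and 0.36 in sh-SRSF3, and SLC25A13 fell by 0.55 in sh-TDP43; the SLC25A12 call was lost in 5 of the settings run, among them without the first sh-control library (0.29, edgeR adjusted p = 0.172). The oxoglutarate carrier SLC25A11 fell by 0.65 in sh-TDP43 and by 1.09 in sh-SRSF3.

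In sh-TDP43 no mitochondrial carrier rose 2-fold and 1 fell 2-fold. SLC25A10 fell from 17.7 and 10.8 to 5.26 and 5.99 CPM, SLC25A30 from 31.8 and 31.4 to 16.2 and 15.7, and the glutamate carrier SLC25A22 from 67.4 and 65.8 to 39.6 and 36.4. SLC25A27, of the uncoupling protein group, rose from 5.19 and 5.09 to 9.47 and 9.92 CPM. Outside the family, the calcium uniporter gene MCU fell by 1.33 in sh-TDP43 and by 0.33 in sh-SRSF3, and the pyruvate carrier gene MPC1 fell by 0.81 and 0.60.

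**Figure D4:**
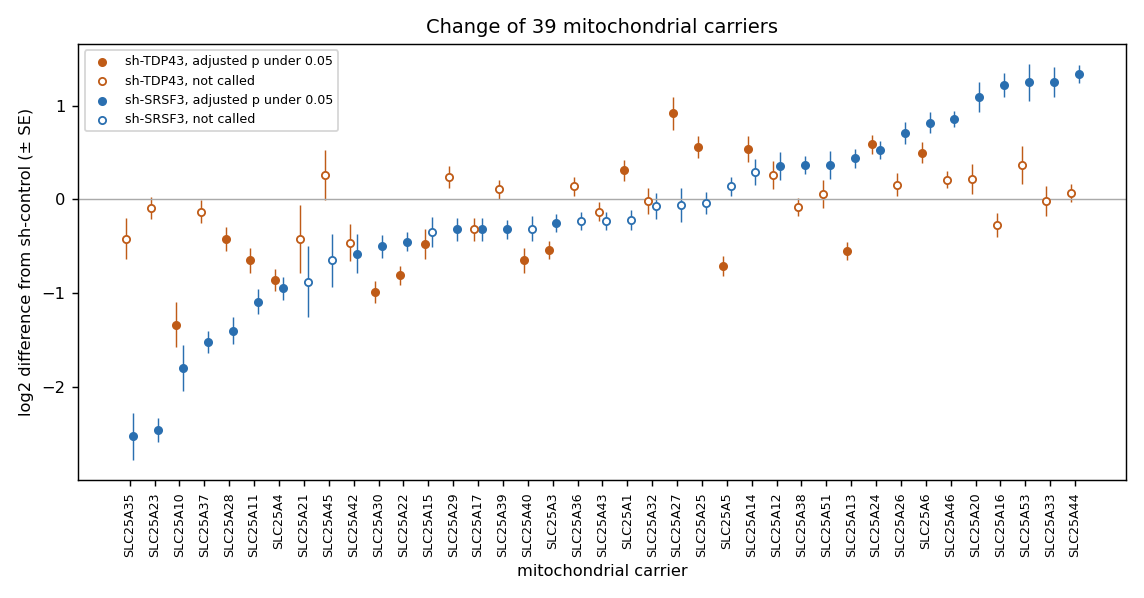
Log2 difference from sh-control (y axis, with SE bars) of 39 of the 40 mitochondrial carriers (x axis, ordered by the sh-SRSF3 value); filled points passed the test and open points did not. The sh-SRSF3 values run from -2.53 for SLC25A35 to 1.34 for SLC25A44, and the sh-TDP43 values from -1.34 for SLC25A10 to 0.92 for SLC25A27.

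Carriers that supply the Golgi with nucleotide sugars and sulphate donors moved in opposite directions between related genes. Of the 24 SLC35 genes 14 fell and 7 rose in sh-SRSF3, or 58.3% and 29.2%, where 34.4% and 32.5% of all genes did. In sh-TDP43 9 fell and 3 rose, or 37.5% and 12.5%, where 24.1% and 20.7% of all genes did. The rises in sh-TDP43 were lost without the second sh-TDP43 library. SLC35B2 and SLC35B3 both carry the sulphate donor PAPS into the Golgi. SLC35B2 stood at 112 and 109 CPM in sh-control and fell to 40.1 and 33.2 in sh-TDP43 (-1.60, SE 0.10, edgeR adjusted p = 6.51e-08) and to 80.7 and 80.3 in sh-SRSF3. SLC35B3 did not pass in sh-TDP43 (19.8 and 19.5 against 22.7 and 21.0 CPM) and rose to 43.6 and 46.9 in sh-SRSF3. SLC35A1, which carries CMP-sialic acid, rose in sh-SRSF3 from 4.76 and 4.77 to 14.7 and 14.1 CPM, and the UDP-galactose carrier SLC35A2 rose by 0.64. SLC35C1, the GDP-fucose carrier of the Golgi, fell from 34.5 and 42.6 to 9.46 and 8.59 CPM in sh-SRSF3. Its sh-TDP43 libraries stood at 48.9 and 51.5, a rise of 0.38 that was lost without the first sh-control library or without either sh-TDP43 library. SLC35E4 fell in both, from 10.8 and 12.8 CPM to 6.51 and 5.70 in sh-TDP43 and to 1.92 and 1.16 in sh-SRSF3. SLC35B1, a carrier of the endoplasmic reticulum, rose by 0.44 in sh-SRSF3; its rise of 0.34 in sh-TDP43 was lost without the second sh-TDP43 or the second sh-control library. SLC35E2 and SLC35E2B are near-identical copies and their counts are uncertain.

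The equilibrative nucleoside carrier ENT1, encoded by SLC29A1, imports nucleosides and nucleoside drugs. Its RNA fell from 237 and 198 CPM to 111 and 100 in sh-TDP43 and to 108 and 84.5 in sh-SRSF3, with log2 differences of -1.04 and -1.18 (SE 0.12 each). The knockdown libraries overlapped each other and lay below both controls. The lysosomal relative SLC29A3 fell in sh-SRSF3 from 9.63 and 9.68 to 2.25 and 3.52 CPM. Of the 4 nucleoside carriers 3 fell and 0 rose in sh-SRSF3, where 34.4% and 32.5% of all genes did. In sh-TDP43 1 fell and 1 rose, near the 24.1% and 20.7% of all genes. The SLC29A2 call in sh-SRSF3 (-0.41) was lost in 4 of the fits that left out a library.

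Of the 11 genes in the vitamin, choline, haem and acetyl-CoA families, 10 fell and 0 rose in sh-SRSF3. That is 90.9% lower, where 34.4% of all genes fell and 32.5% rose. The vitamin carrier SLC5A6, which rose by 0.34, is counted with the sugar families. Without the first sh-SRSF3 library 6 of the 11 were called lower: SLC19A2, SLC23A2, SLC33A1 and SLC46A3 lost the call (edgeR adjusted p = 0.0513 to 0.157). SLC44A1, a choline carrier that feeds phosphatidylcholine synthesis, stood at 58.1 and 61.0 CPM in sh-control, 31.6 and 29.4 in sh-TDP43 and 9.52 and 12.9 in sh-SRSF3, with no overlap between groups (-0.96, SE 0.13, and -2.40, SE 0.14). SLC44A2 fell by 0.53 and 0.65. The folate carrier SLC46A1 fell in sh-SRSF3 from 7.91 and 9.42 to 2.01 and 1.44 CPM. A further folate carrier, SLC19A1, stood at 2.45 and 3.03 CPM in sh-control and at 0.12 and 0.166 in sh-SRSF3. SLC19A1 thus met the level only through libraries other than sh-SRSF3. Its values are given with no test, though it is counted among the 10. The thiamine carrier SLC19A2 fell in sh-TDP43 from 25.3 and 30.0 to 13.5 and 12.2 CPM. The haem carrier SLC48A1 fell in sh-SRSF3 from 23.0 and 26.2 to 7.57 and 6.04 CPM. The riboflavin carrier SLC52A2 was the member without a call in sh-SRSF3 (0.16). In sh-TDP43, 6 of the 11 genes fell and 1 rose, and 5 and 3 with upper-quartile scaling. The shares were 54.5% lower and 9.09% higher, where 24.1% and 20.7% of all genes were. The riser SLC46A3 (0.68), a lysosomal carrier, lost its call without the second sh-TDP43 library (0.44, edgeR adjusted p = 0.221) and without the first sh-control library.

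All 4 fatty acid carriers of the SLC27 family fell in sh-SRSF3, where 34.4% of all genes did. These proteins couple fatty acid uptake to activation with coenzyme A. SLC27A4 fell from 94.0 and 75.3 CPM to 56.6 and 56.2 in sh-TDP43 and to 39.1 and 37.3 in sh-SRSF3. SLC27A1 separated the knockdowns, at 14.5 and 12.1 CPM in sh-control, 22.9 and 28.0 in sh-TDP43 and 5.95 and 4.82 in sh-SRSF3 (direct difference 2.24, edgeR adjusted p = 6.42e-08). SLC27A3 fell in sh-SRSF3 from 5.57 and 5.24 to 0.421 and 0.443 CPM. SLC27A5 fell by 0.75, a call lost with DESeq2 and in 4 of the fits that left out a library.

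Among the 20 amino acid and amine carriers that the selection kept, 14 fell and 4 rose in sh-SRSF3, where 34.4% and 32.5% of all genes did. In sh-TDP43 7 of the 20 fell and 6 rose, where 24.1% and 20.7% of all genes did. The risers of both knockdowns include SLC18A2, which met the level only through the knockdown libraries. SLC43A2, a carrier of large neutral amino acids, rose in sh-SRSF3 from 7.80 and 6.21 to 31.4 and 34 CPM (2.22, SE 0.16, edgeR adjusted p = 3.13e-08), while its family member SLC43A1 fell from 9.66 and 9.21 to 3.12 and 1.94. In sh-TDP43 SLC43A2 overlapped the controls at 7.27 and 8.96. SLC38A9, the lysosomal arginine sensor upstream of mTORC1, rose in both, from 15.6 and 21.0 CPM to 34.2 in both sh-TDP43 libraries and to 32.3 and 34.8 in sh-SRSF3. SLC38A7, a lysosomal glutamine carrier, rose by 0.63 in sh-TDP43. SLC36A1, a lysosomal exporter of small amino acids, fell from 29.3 and 31.8 to 17.9 and 13.2 CPM in sh-TDP43. SLC38A4 fell in both, from 14.7 and 14.4 to 9.01 and 9.44 and to 2.85 and 3.10. The taurine carrier SLC6A6 fell in sh-SRSF3 from 94.1 and 115 to 30.7 and 30.1 CPM, and the glycine carrier SLC6A9 from 9.63 and 12.1 to 0.541 and 0.859. SLC1A7, a glutamate carrier, rose in sh-TDP43 from 1.16 and 1.10 to 10.3 and 8.82 CPM and stood at 0.631 and 0.499 in sh-SRSF3. The vesicular amine carrier SLC18A2 was at 0.753 and 0.887 CPM in sh-control, 2.44 and 2.11 in sh-TDP43 and 5.50 and 5.48 in sh-SRSF3, given with no test.

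The 5 genes that only share the prefix are named here to complete the account. SLC2A4RG, a transcription factor, fell from 142 and 124 CPM to 55.1 and 42.9 in sh-TDP43 and to 53.1 and 48.6 in sh-SRSF3. The scaffold genes SLC9A3R1 and SLC9A3R2, whose products anchor carriers to the cytoskeleton, fell in sh-SRSF3 by 0.52 and 1.16. SLC4A1AP fell by 0.74 in sh-TDP43 and rose by 0.93 in sh-SRSF3, and SLC7A6OS rose by 0.44 in sh-SRSF3, a call lost with upper-quartile scaling, without the first sh-control library and without the second sh-SRSF3 library. SLC7A6OS lies opposite SLC7A6, and counting without strand cannot tell reads of such a pair apart.

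RNA immunoprecipitation asked which carrier RNAs came down with each tagged protein. With 1 RIP and 1 input library per protein there is no replicate check and no test, and values are given as log2((RIP FPKM + 1)/(input FPKM + 1)) for genes with an input of at least 1 FPKM. Over 130 members with that input, 17 (13.1%) were at least 2-fold higher and 16 (12.3%) at least 2-fold lower in the Flag-TDP43 RIP, where 12.9% and 14.4% of 9678 genes were. Over 116 members, 20 (17.2%) were at least 2-fold higher and 4 (3.45%) lower in the Flag-SRSF3 RIP, where 11.7% and 7.66% of 9523 genes were. The 16 lower members became 27 with a pseudocount of 0.1 FPKM, 26 with the authors' deposited log2 ratios, 32 with the second deposited table and 10 with an input of at least 5 FPKM. That input left 7 members higher for Flag-TDP43 and 10 for Flag-SRSF3.

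In the Flag-TDP43 RIP the highest member was the mitochondrial glutamate carrier SLC25A22, read at 3.56 FPKM in the input and 55.3 in the RIP, a log2 ratio of 3.63. SLC25A44 (1.93 and 14.1 FPKM), SLC35B4 (4.61 and 26.3), the magnesium carrier SLC41A2 (4.22 and 18.4) and SLC39A11 (1.93 and 7.78) followed. Lowest were SLC25A10 (18.1 and 2.48 FPKM), SLC35D2 (6.35 and 0.618), SLC25A6 (57.0 and 12.2), SLC10A3 (8.47 and 1.4) and SLC35F6 (5.49 and 0.744). In a second deposited table of normalised signal for the same libraries, SLC25A22 was again the highest of these 10 at 11.2 in the input and 112 in the RIP, while SLC10A3 and SLC35D2 were no longer 2-fold lower (-0.48 and -0.35).

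In the Flag-SRSF3 RIP the highest members were SLC20A1 (1.83 FPKM in the input and 26.2 in the RIP, log2 ratio 3.27), SLC10A3 (4.34 and 26.2), SLC25A5 (52.4 and 239), SLC6A6 (1.10 and 6.84) and the glutathione carrier SLC25A39 (8.94 and 35.4). The SLC20A1 value rests on a low input: the Flag-TDP43 input read 43.3 FPKM for the same gene. In the second deposited table SLC20A1 read 90.8 in the SRSF3 input and 67.7 in the RIP, so its direction turned (-0.42), and SLC10A3, SLC25A5 and SLC6A6 fell short of 2-fold (0.79, 0.28 and 0.24). The lowest members were SLC27A4 (14.2 and 0.303 FPKM), SLC44A2 (13.5 and 1.54), SLC35D2 (5.53 and 0.775), SLC35F5 (4.32 and 1.42) and SLC37A3 (1.91 and 0.599). The first 3 of these turned direction in the second table (1.10, 0.51 and 0.08). SLC25A39 kept a value of at least 2-fold in both tables, with 45.2 in the input and 92.7 in the RIP of the second.

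The members high in a RIP are set beside the knockdown of the same protein. Of the 17 members at least 2-fold higher in the Flag-TDP43 RIP, 6 fell and 2 rose in sh-TDP43, against 47 and 20 of the other 113 members with that input. Over all genes tested, 408 fell and 218 rose of the 1142 higher in that RIP, against 2458 and 1455 of the other 7584. Of the 20 higher in the Flag-SRSF3 RIP, 12 fell and 4 rose in sh-SRSF3, against 54 and 28 of the other 96. Over all genes tested, 450 fell and 289 rose of the 1011 higher in that RIP, against 2495 and 3041 of the other 7538. These counts were not tested against each other.

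**Figure D5:**
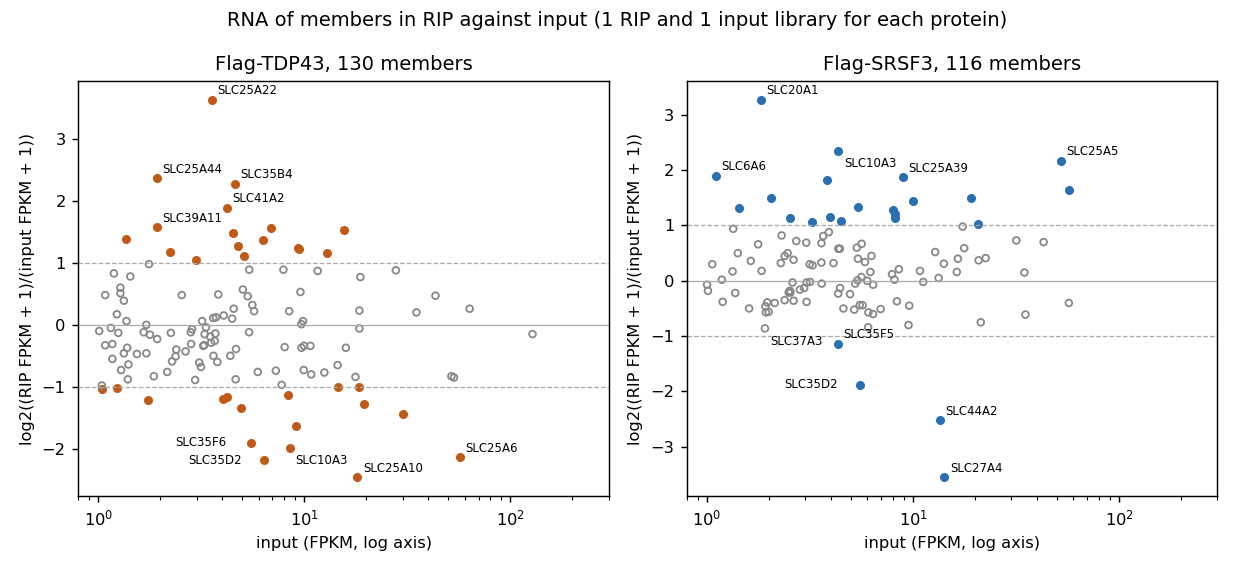
Log2 ratio of RIP over input (y axis, pseudocount 1 FPKM) against the input level (x axis, FPKM on a log scale) for the members with at least 1 FPKM in the input, 130 for Flag-TDP43 on the left and 116 for Flag-SRSF3 on the right. Filled points passed 2-fold (dashed lines), and the 5 highest and 5 lowest members of each RIP are named, from SLC25A22 at 3.63 to SLC25A10 at -2.46 on the left and from SLC20A1 at 3.27 to SLC27A4 at -3.55 on the right.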

How the data were processed

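RNA-seq counts of 6 MDA-MB231 libraries (sh-control, sh-TDP43 and sh-SRSF3, 2 each) and RIP values of 4 libraries were used. Per the file headers, the authors deposited, for the knockdowns, whole read counts that featureCounts 1.4.6-p5 made over the exons of each gene, with no strand or pair option. GRCh37 is the build in the submitters' processing notes. STAR 2.5.2a, HISAT2 2.0.5, StringTie 1.3.0 and Cufflinks are named in the submitters' processing notes, with no role given. Per the file headers, the authors' RIP table holds FPKM per gene and their deposited log2 ratios of RIP over input. The second table deposited by the authors holds a normalised signal of unstated unit. Of the count columns, 2 match no label and were not used. Symbols came from the RIP table and covered 27068 of 27745 genes.

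The main test was the quasi-likelihood F-test of edgeR 4.0.16 (R 4.3.3), fitted to all 6 libraries with TMM scaling, no covariates and 3 residual degrees of freedom. The filterByExpr step left 15026 genes, with Benjamini-Hochberg adjustment over all of them. Levels are TMM-scaled CPM; RPKM is CPM per kilobase of the deposited exon length. Depth was 34457445 to 38326930 counted reads. Replicate libraries were no copies of each other: their counts differed beyond sampling noise. The fit was tested on simulated counts.

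Members, gene lists and tests were chosen with earlier results of these data known. Named genes are, per substrate group and knockdown, the 2 largest rises and 2 largest falls at adjusted p under 0.05, a mean of 5 CPM or more and no overlap with the controls, then SLCO4A1 and the 5 highest and 5 lowest members of each RIP; others were named for their role after their values were seen. SLC4A1AP, SLC7A6OS and SLC2A4RG were classed as no carriers after the member list was seen. Some single genes of these lists are counted but not reported here by name. Alternatives were DESeq2 1.42.0, upper-quartile scaling, no filter, the 2 groups alone, a replicate block and each library left out. For RIP they were a pseudocount of 0.1, an input of 5 FPKM, the authors' log2 ratio and, chosen after seeing the data, the second table.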

Additional observations from a re-analysis of the deposited data

How the results depend on the processing

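Counts of members called kept within 1.5 times of the reported value in every alternative but those given here. Leaving out 1 library at a time gave 20 to 46 members higher and 46 to 66 lower in sh-TDP43, 45 to 48 higher and 105 to 115 lower in sh-SRSF3, and 101 to 114 higher and 48 to 59 lower in sh-TDP43 against sh-SRSF3. The lowest of these, 20, came without the second sh-TDP43 library; a group left with 1 library is assumed to vary like the others. Upper-quartile scaling moved the median of all genes tested from -0.03 to -0.19 in sh-SRSF3 and from 0.04 to 0.29 in the direct comparison, and the members' median from -0.54 to -0.69 in sh-SRSF3 and from -0.06 to 0.03 in sh-TDP43. It also turned SLC4A7 in the direct comparison (from -0.25 to 0.0). In the Flag-TDP43 RIP the members at least 2-fold lower, 16 in the report, were 27 with a pseudocount of 0.1 FPKM, 26 with the authors' log2 ratio, 32 with the second table and 10 with an input of at least 5 FPKM, which left 7 of 17 higher and, for Flag-SRSF3, 10 of 20 higher. In the Flag-SRSF3 RIP the second table turned SLC20A1 (-0.42), SLC27A4 (1.10), SLC35D2 (0.08) and SLC44A2 (0.51). The cause of these changes was not tested, except that a higher input minimum and a left-out library leave fewer genes or libraries.

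Replicate numbers in the titles were not used to pair the libraries in the main test. Deviations of same-numbered libraries from their group means correlated weakly, at 0.12, 0.0755 and 0.0879. Such values neither show nor exclude a pairing. With the replicate block 49 members rose and 71 fell in sh-TDP43, 49 rose and 124 fell in sh-SRSF3, and 116 were higher and 60 lower in sh-TDP43 than in sh-SRSF3. With 2 libraries a group and 3 residual degrees of freedom, small differences and members near 1 CPM are measured with little precision.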
